A study of Mus musculus with 6 samples.

Results

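The genes described here encode 9 nuclear receptors of the gut epithelium: Rxra, Rxrb, Rara, Vdr, Thra, Ppara, Ppard, Nr1h3 and Nr5a2. They were chosen by name, and every cytosine position from 1000 bases before to 1000 bases after each gene span (mm10, RefSeq GRCm38.p6 spans) was read from a table of DNA methylation levels. The 9 genes hold 674 of the 390208 positions used. A value was present in all 6 libraries at 492 of the 674 (73.0%), against 272327 of 390208 (69.8%) over all genes and intergenic stretches, and a position of this kind is called a complete site here. With at least 3 complete sites required, 8 of the 9 receptor genes were measured among 9197 gene spans, and Rxrb was not.

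The series profiled mouse intestinal organoids of the Apc Min genotype, labelled as primary cells, by reduced representation bisulfite sequencing (RRBS), which reads cytosines in CpG-rich restriction fragments. Apc Min is a truncating germline allele of the Wnt pathway inhibitor Apc. All organoids were kept in low glutamine medium. The control group (3 biological replicates) had the control treatment, and the DM-aKG group (3 biological replicates) had DM-aKG, which the series title ties to α-ketoglutarate. The sources used here give no dose, exposure time or number of animals behind the cultures. The comparison asks whether the methylation of these genes differs between treated and control organoids.

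Nuclear receptors are transcription factors with a zinc-finger DNA-binding domain and, in most, a pocket for a small lipophilic ligand. Many bind DNA as a heterodimer with a retinoid X receptor (RXR), so that retinoic acid, vitamin D, thyroid hormone, fatty acid and oxysterol signals share a partner, while LRH-1, the product of Nr5a2, binds alone. In the intestine these receptors are known for roles in crypt renewal, enterocyte differentiation, lipid uptake, bile acid handling and calcium absorption. Methylation of CpGs at a promoter is commonly associated with silencing, whereas methylation inside a gene body is common in active genes, and TET dioxygenases, which remove it stepwise, use α-ketoglutarate as a co-substrate.

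Most receptor promoters lay outside what the table holds. The RefSeq promoter sequences used here cover 15 start sites of 8 of the 9 receptor genes, all but Thra, and in windows from 250 bases before to 50 bases after a start, 2 of the 15 (13.3%) held any position, against 786 of 18204 windows (4.32%) over all genes in the rows used. Both of those windows and the window of the CpG-rich first start of Rxra, which held no position, are given below in the direction of transcription. Capitals mark cytosines, or guanines paired with a cytosine on the other strand, at which the table has a value in at least 1 library. The windows are chr1:136953581-136953880 on the minus strand for the second listed start of Nr5a2, chr11:98939461-98939760 on the plus strand for the start of Rara at 98939711, and chr2:27676951-27677250 on the plus strand for the first of Rxra (RefSeq, GRCm38.p6).
Nr5a2 window: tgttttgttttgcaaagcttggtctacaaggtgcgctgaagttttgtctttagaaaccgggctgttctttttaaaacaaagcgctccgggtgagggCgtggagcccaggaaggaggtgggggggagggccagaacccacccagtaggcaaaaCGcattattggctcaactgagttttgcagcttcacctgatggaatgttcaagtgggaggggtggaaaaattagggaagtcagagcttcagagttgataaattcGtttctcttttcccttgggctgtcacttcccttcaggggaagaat
Rara window: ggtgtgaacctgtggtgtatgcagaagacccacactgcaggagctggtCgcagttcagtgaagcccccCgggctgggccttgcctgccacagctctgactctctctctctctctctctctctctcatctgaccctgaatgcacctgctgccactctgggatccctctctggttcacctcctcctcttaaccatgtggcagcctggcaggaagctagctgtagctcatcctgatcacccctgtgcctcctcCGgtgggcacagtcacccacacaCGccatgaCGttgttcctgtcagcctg
Rxra window: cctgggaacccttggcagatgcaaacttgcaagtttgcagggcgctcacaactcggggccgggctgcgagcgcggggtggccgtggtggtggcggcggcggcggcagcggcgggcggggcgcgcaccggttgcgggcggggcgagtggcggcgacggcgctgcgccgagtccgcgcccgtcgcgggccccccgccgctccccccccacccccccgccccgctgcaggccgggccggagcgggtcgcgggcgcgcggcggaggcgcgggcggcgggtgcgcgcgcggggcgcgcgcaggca
The 3 windows hold 7, 5 and 55 CpGs respectively, and only 0.291% of the 18204 windows have as many as that of Rxra. The letters AGGTCA, the half-site that many nuclear receptors bind, were searched on both strands. They occurred in 20% of the 15 receptor windows and in 16.2% of all windows, and in none of the 3 printed ones.

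In the Nr5a2 window, 4 positions had values, 2 of them in every library. At chr1:136953784, at -154 from the start, the level was 100%, 100% and 100% in control replicates 1 to 3 and 92%, 91% and 86% in DM-aKG replicates 1 to 3. The treated libraries lay below the controls, by 10.3 points (95% interval -15.2 to -5.49), and limma on percent with Benjamini-Hochberg adjustment over 272327 sites gave an adjusted p of 0.674. On log2 odds the limma adjusted p of this site was 0.0452, on a scale where 3 controls at the ceiling of 100% have no spread. At -98 the levels were 75%, 50% and 92% in the controls and 69%, 91% and 71% with DM-aKG, and the groups overlapped. The positions at -97 and 5 had values in 4 and 2 libraries only. In the Rara window 1 of 8 positions was complete, 1 base after the start, with 85%, 76% and 88% in the controls and 84%, 86% and 75% with DM-aKG, again overlapping.

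Before the comparison, 1 library has to be set apart. Values were present at 83.7% to 88.6% of the positions used, with the lowest share in control replicate 1, and no read depth is known for any level. Over all complete sites control replicate 1 had the lowest mean level (86.7%, the other 5 libraries 87.9% to 88.9%). Over the 492 complete sites of the receptor genes it had the highest (91.0%, the others 87.6% to 88.8%), and it was the highest of the 6 libraries in 4 of the 8 measured receptor genes. Span differences are therefore given with and without it, as are cluster, site and place differences that move much without it. Values from 1% to 39% do not occur in the table and a 0 was treated as no value, so a level stands for sites at or above 40% in every library. A level averages over the cells of a culture, and cells with different methylation and partly methylated cells cannot be told apart.

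Over whole spans, 0 of the 8 measured receptor genes passed limma with Benjamini-Hochberg adjustment over 9197 genes (background 0% adjusted, and 6.23% at an unadjusted p under 0.05, where the receptor genes also had 0). In 4 the mean was higher and in 4 lower with DM-aKG, and with library means equalised 2 were higher and 6 lower. Their median difference was -0.05 points, against 0.733 over all genes, of which 66.4% were higher. Leaving out single libraries moved the receptor median between -0.593 and 0.331, the latter without control replicate 1. Equalising the library means moved the all-gene median to -0.317, with 43.9% of genes higher, and the receptor median to -1.10. In 0 of the 8 were the groups free of overlap, where 13.8% of all genes had groups that did not overlap (11.3% higher and 2.53% lower with DM-aKG). With library means equalised, 511 genes without overlap were higher and 754 lower, beside 1035 higher and 233 lower in the reported analysis.

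**Figure D1:**
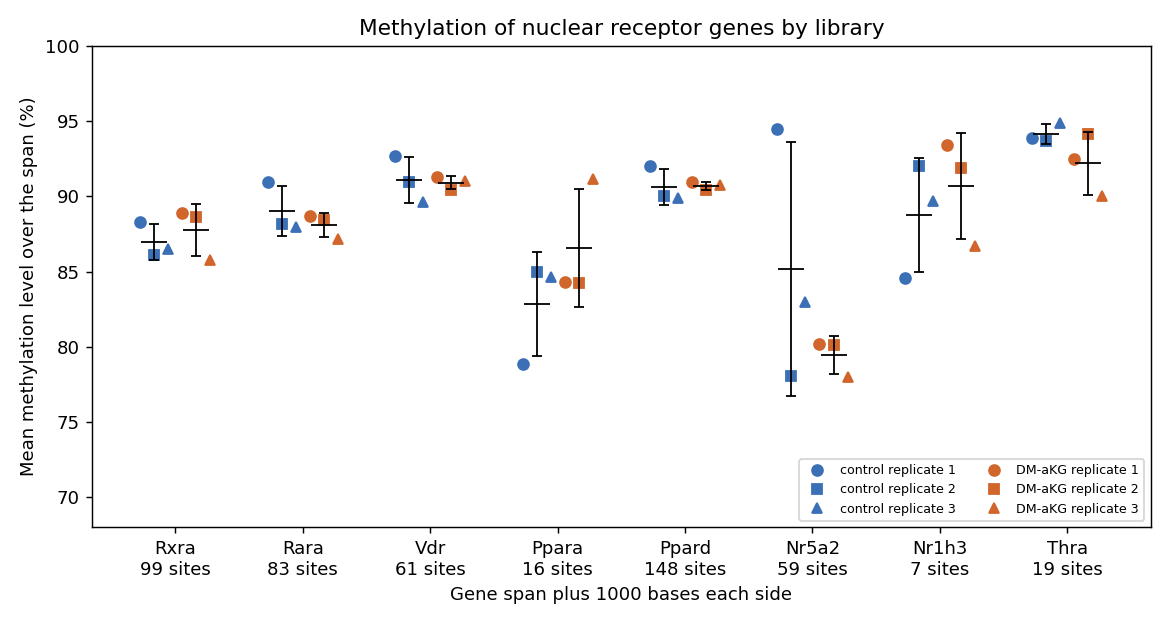
Mean level of methylation (%, vertical axis, which does not start at 0) over the complete sites of each measured receptor gene (horizontal axis) in 3 control (blue) and 3 DM-aKG (orange) libraries; black bars mark group means with SDs (n = 3). The groups overlap in all 8 genes, and control replicate 1 of Nr5a2, at 94.5%, stands above the other 5 libraries, at 78.0% to 83.0%.

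Rxra encodes RXRα, the common heterodimer partner. It lies on the plus strand at chr2:27676445-27763319 and had 99 complete sites of 120 positions. Its mean level was 88.3%, 86.1% and 86.5% in control replicates 1 to 3 and 88.9%, 88.6% and 85.8% in DM-aKG replicates 1 to 3. The highest and the lowest library were both treated ones. The difference was 0.771 points (95% interval -2.34 to 3.88, limma adjusted p = 0.890), 1.45 without control replicate 1 and -0.280 with library means equalised.

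Rxrb encodes RXRβ, a further partner receptor, at chr17:34031812-34038403, and its flanks reach into Slc39a7 and Col11a2. It had 6 positions, none with a value in more than 4 libraries, so it has no tested level. The positions at 34034772, 34034905 and 34034919 each had 100% in control replicate 1 and in DM-aKG replicates 2 and 3 and no value elsewhere. At 34034972 and 34034980 only DM-aKG replicates 1 and 2 had values, 50% and 100% at the first and 100% and 100% at the second. The last position, 34038466, just beyond the span, stood at 43%, 44% and 42% in the controls and 42% in DM-aKG replicate 2. These values near 40% lie at the lower limit of the table, and the missing libraries may be either under it or without a call.

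Rara encodes the retinoic acid receptor RARα, on the plus strand at chr11:98927800-98974942, with 83 complete sites of 118 positions. Its level was 91.0%, 88.2% and 88.0% in the controls and 88.7%, 88.5% and 87.1% with DM-aKG. Control replicate 1 was the highest and DM-aKG replicate 3 the lowest, and the other 4 lay within 1 point of each other. The difference was -0.936 points (95% interval -3.87 to 2.0, limma adjusted p = 0.859), and 0.0341 without control replicate 1.

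Vdr encodes the vitamin D receptor, which drives calcium absorption genes in enterocytes. The gene lies on the minus strand at chr15:97854427-97908296 and had 61 complete sites, 22 of them shared with the overlapping genes Gm33690 or Gm52171. Levels were 92.7%, 90.9% and 89.6% in the controls and 91.3%, 90.4% and 91.0% with DM-aKG. The treated libraries fell within the range of the controls. The difference was -0.164 points (95% interval -2.87 to 2.54, limma adjusted p = 0.962), 0.628 without control replicate 1 and 0.0683 without DM-aKG replicate 2.

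Thra encodes the thyroid hormone receptor α, which acts in crypt cells, at chr11:98740776-98769006. It had 19 complete sites, 5 of them shared with Nr1d1. Its level was 93.9%, 93.7% and 94.9% in the controls and 92.5%, 94.2% and 90.0% with DM-aKG. The control mean, 94.2% ± 0.647 (SD, n = 3), was the highest of the 8 genes. DM-aKG replicate 2 lay inside the control range and the other treated libraries below it. The difference was -1.95 points (95% interval -5.14 to 1.25, limma adjusted p = 0.764), and -2.08 without control replicate 1.

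Ppara encodes PPARα, a fatty acid receptor that drives fatty acid oxidation, on the plus strand at chr15:85734910-85806851, with 16 complete sites of 26 positions. Levels were 78.9%, 85.0% and 84.6% in the controls and 84.3%, 84.3% and 91.1% with DM-aKG. One library of each group stood apart, control replicate 1 below and DM-aKG replicate 3 above the other 4, which lay together. The difference was 3.73 points (95% interval -2.47 to 9.93, limma adjusted p = 0.765). It was 1.75 without control replicate 1 and 1.45 without DM-aKG replicate 3.

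Ppard encodes PPARδ, a fatty acid receptor linked to the stem cells of the crypt, on the plus strand at chr17:28232754-28301469. It had the most complete sites of the receptor genes, 148 of 184 positions. Levels were 92.0%, 90.0% and 89.9% in the controls and 90.9%, 90.4% and 90.7% with DM-aKG. All 3 treated libraries lay between the controls. The difference was 0.0676 points (95% interval -2.38 to 2.52, limma adjusted p = 0.994), 0.745 without control replicate 1 and -0.983 with library means equalised.

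Nr1h3 encodes LXRα, an oxysterol receptor that drives cholesterol efflux genes, on the minus strand at chr2:91184061-91202829. Only 7 of its 13 positions were complete, all within the stretch from 91190610 to 91190687, and no complete site lay elsewhere in the gene. Levels were 84.6%, 92.0% and 89.7% in the controls and 93.4%, 91.9% and 86.7% with DM-aKG. Each group spread over more than 6 points, wider than their difference of 1.90 points (95% interval -4.24 to 8.05, limma adjusted p = 0.843). Without control replicate 1 the difference was -0.190.

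Nr5a2 encodes LRH-1, a receptor that binds phospholipids and is needed for renewal of the crypt, on the minus strand at chr1:136842562-136960448. It had 59 complete sites of 94 positions, or 38 with positions 1 base apart merged. Its level was 94.5%, 78.1% and 83.0% in the controls and 80.2%, 80.1% and 78.0% with DM-aKG. Control replicate 1 was far above the other 5 libraries, and the SD of the controls, 8.44 points, was one that 2.61% of the 9197 genes reached. The difference was -5.73 points (95% interval -15.5 to 4.02, limma adjusted p = 0.765) and -1.07 without control replicate 1.

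By level, the control means ran in the order Thra (94.2%), Vdr (91.1%), Ppard (90.6%), Rara (89.0%), Nr1h3 (88.8%), Rxra (87.0%), Nr5a2 (85.2%) and Ppara (82.8%). Neighbours from Vdr to Ppara in this order differed by less than the larger of their control SDs, while Thra stood above Vdr by more. The nearest pair across the 6 libraries was Vdr and Ppard, with a root mean square difference of 0.512 points, and Rxra and Rara came next with 1.60. The nearest gene to Thra was Vdr (2.98 points), that to Nr1h3 was Ppard (3.73), and Rxra was nearest to both Ppara (5.20) and Nr5a2 (7.33). Averaged over the 8 genes with equal weight, control libraries had 88.6% ± 0.784 (SD, n = 3) and treated ones 88.3% ± 0.642, a difference of -0.288 points. Without Nr5a2 the mean of 7 genes differed by 0.489 points, from 89.1% ± 0.333 (control) to 89.6% ± 0.557 (DM-aKG). Without control replicate 1 the mean of 8 genes differed by 0.158 points and that of 7 genes by 0.334. The sign of the average thus turned without Nr5a2 or without control replicate 1. It also turned without DM-aKG replicate 3.

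The Nr5a2 spread had a definite place. A cluster is used here for a run of at least 3 complete sites with gaps of at most 200 bases, and the gene had 5 clusters. The last, of 32 sites at chr1:136952627-136953170, lies inside the gene 460 to 1003 bases downstream of the second listed start, whose window is printed above. Its level was 95.7%, 65.2% and 72.3% in control replicates 1 to 3 and 67.6%, 67.3% and 64.0% in DM-aKG replicates 1 to 3. Control replicate 1 lay above all 5 other libraries at 31 of the 32 sites, and 10 of its sites were at 100%, whereas no site of the other 5 libraries exceeded 92% there. Its lowest site was at 80%, and the lowest of the others at 40%. The difference between groups was -11.4 points (95% interval -29.6 to 6.74, limma adjusted p = 0.828 over 32136 clusters) and -2.42 without control replicate 1, where control replicates 2 and 3 averaged 68.7% and the treated libraries 66.3%.

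The gap of control replicate 1 to the next library in that cluster, 23.5 points, was matched or passed by the highest library of 10 of the 32136 clusters (0.0311%), this one included, and it was the only one among the 1662 clusters of 20 or more sites. Control replicate 1 stood at least 20 points above all other libraries in 25 clusters and at least 20 points below them in 113. For the other 5 libraries these counts were 0 to 2 above and 1 to 8 below. The library thus departed from the rest in both directions, and more often downward. What sets it apart was not tested.

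**Figure D2:**
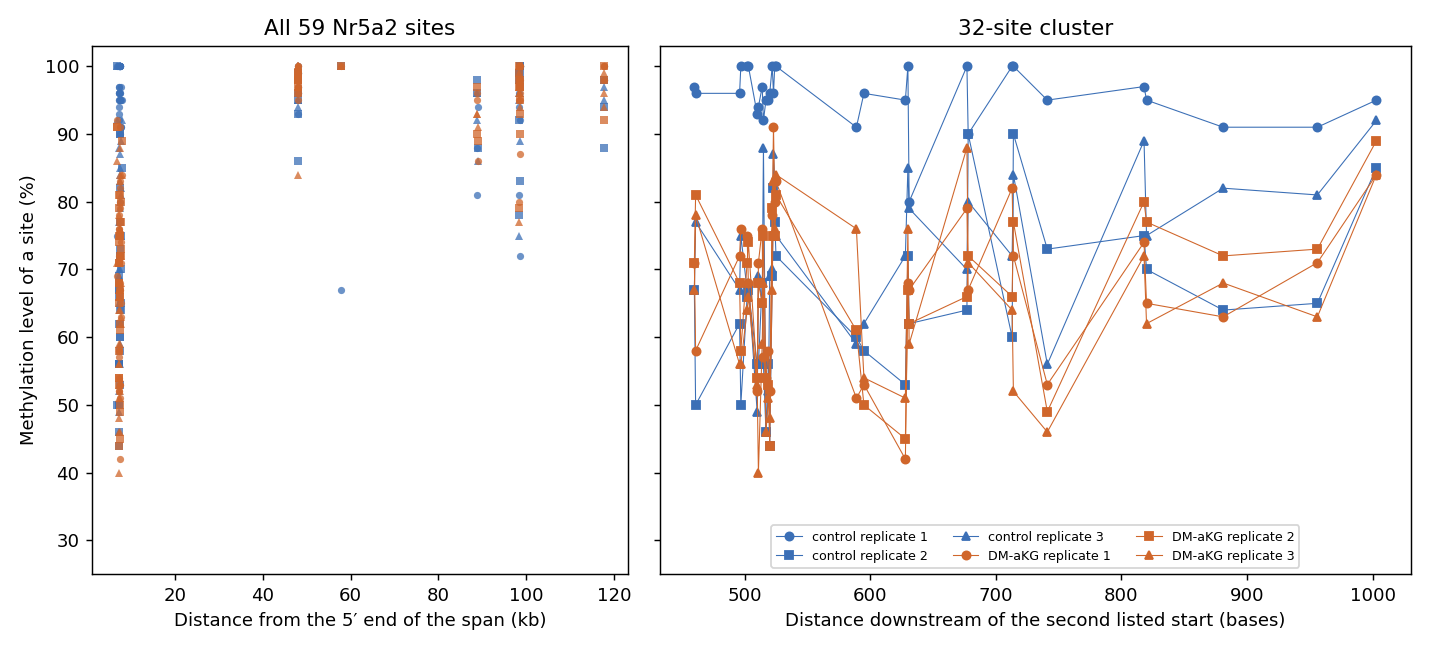
Methylation level (%, vertical axes, which do not start at 0) of Nr5a2 sites in the 6 libraries: all 59 complete sites against distance from the 5′ end of the span in kilobases (left), and the 32-site cluster against distance downstream of the second listed start in bases (right). In the cluster the line of control replicate 1 (blue circles) runs between 80% and 100%, and those of the other 5 libraries between 40% and 92%.

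Elsewhere in Nr5a2 the libraries lay close together. Over the 27 complete sites outside the cluster the level was 93.0%, 93.3% and 95.7% in the controls and 95.1%, 95.4% and 94.6% with DM-aKG (1.02 points higher). The 7-site cluster at chr1:136912419-136912468, well inside the gene, had 97.1%, 95.0% and 97.0% in the controls and 97.7%, 97.9% and 97.3% with DM-aKG. Those groups did not overlap, while the difference of 1.24 points had a 95% interval of -1.94 to 4.41 (limma adjusted p = 0.875). Of the receptor genes, Nr5a2 had the largest share of partly methylated sites, with 49.2% of its sites at a mean under 80%, against 20.3% over the 492 receptor sites and 20.9% over all complete sites. Ppara had 31.3% and Nr1h3 0%. The Nr5a2 share rested largely on the 32-site cluster. In every library but control replicate 1 that cluster lay below the 27 sites outside it.

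The place of sites within the genes set Nr5a2 apart too, again mainly through the 32-site cluster. Of the 473 complete sites of receptor genes with a listed start, 34 (7.19%) lay within 1000 bases of one, against 5.24% of all 258662 complete sites, intergenic ones included, on chromosomes with listed starts. Of these 34, 33 belonged to Nr5a2, most of them in that cluster, and 1 to Rara. Rxra, Vdr, Ppara, Ppard and Nr1h3 had no complete site there, and no start of Thra was used here. A site under 40% in any library would not be counted as complete. Exons, introns and untranslated regions were not used here.

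Sites within 1000 bases of the 3′ end of a span could be compared with sites further inside in 3 receptor genes. In Ppard the 14 sites near the end had 86.4%, 91.8% and 88.6% in the controls and 89.8%, 88.1% and 92.5% with DM-aKG, and the 134 inner sites 92.6%, 89.8% and 90.0% and then 91.1%, 90.7% and 90.5%. Control replicate 1 was thus the lowest library at the end of Ppard and the highest inside it. The differences were 1.19 points (95% interval -3.35 to 5.73) and -0.05 points (-2.85 to 2.75), and without control replicate 1 they were -0.0952 and 0.833. In Rxra they were 2.07 points over 5 sites near the end (95% interval -2.06 to 6.19) and 0.702 over 94 inner sites, and 1.10 and 1.46 without control replicate 1. In Nr5a2 they were 1.22 points over 3 sites near the end and -6.10 over 56 inner sites, which include the 32-site cluster, and 2.44 and -1.26 without control replicate 1. None of these places passed limma with adjustment over 11195 gene-by-place features, of which 1 did (0.00893%), and none of the 11 receptor places had an unadjusted p under 0.05.

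Of 56 clusters in the receptor genes, 4 had all treated libraries above all controls (background 8.55%) and 3 had them below (2.58%). These 7 are 12.5% of the 56, beside 11.1% of all 32136 clusters, so the share of receptor clusters without overlap is near the background. At an unadjusted limma p under 0.05 there were 5 (8.93%, background 5.84%). After adjustment there were 0, against 1 of 32136 (0.00311%), and the smallest limma adjusted p was 0.824. The median cluster difference was 0.167 points, against 0.825 over all clusters.

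**Figure D3:**
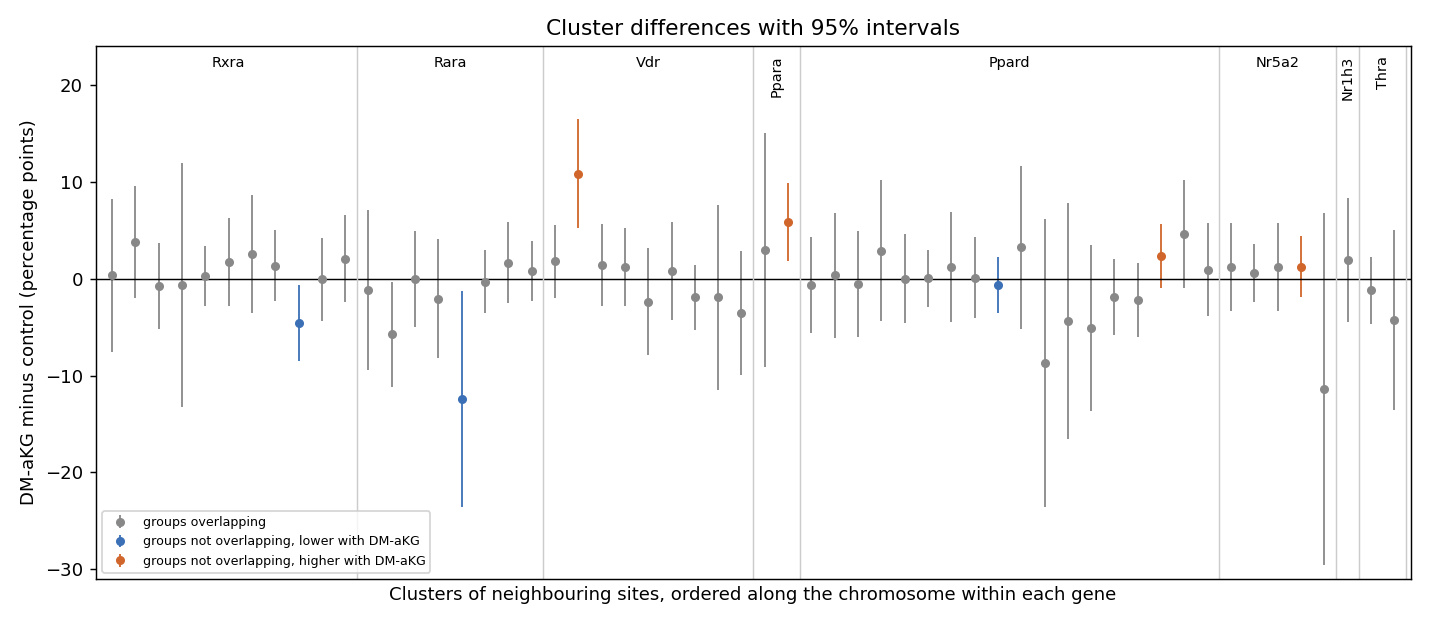
Difference in mean methylation level, DM-aKG minus control (percentage points, vertical axis), with its 95% interval from limma, for each of 56 clusters in chromosome order within 8 receptor genes (horizontal axis). The 7 coloured clusters are those whose groups do not overlap, and the widest interval, -29.6 to 6.74, belongs to the 32-site cluster of Nr5a2.

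In Rxra the 6-site cluster at chr2:27749320-27749530, deep inside the gene, had the smallest p. It had 94.2%, 89.5% and 90.7% in the controls and 86.8%, 86.7% and 87.0% with DM-aKG. The treated libraries were almost equal and all below the controls, and 4 of 6 sites had a lower mean. The difference was -4.61 points (95% interval -8.55 to -0.670, limma adjusted p = 0.824), and -3.25 without control replicate 1. The cluster with the most sites, 21 at chr2:27739726-27740282, had 90.5%, 91.4% and 92.8% in the controls and 96.1%, 93.5% and 90.3% with DM-aKG. There the treated libraries enclosed the controls, with a difference of 1.73 points, and 0.333 without DM-aKG replicate 1.

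In Rara a 5-site cluster at chr11:98970603-98970628, near the 3′ end, was the least methylated of the gene. Its level was 82.2%, 69.0% and 69.0% in the controls and 58.4%, 67.8% and 56.8% with DM-aKG. The lowest controls lay just above the highest treated library, and 4 of 5 sites had a lower mean with DM-aKG. The difference was -12.4 points (95% interval -23.5 to -1.27, limma adjusted p = 0.824), and -8.00 without control replicate 1. Further towards the 3′ end, a 24-site cluster at chr11:98971109-98971366 had 92.8%, 91.4% and 90.5% in the controls and 91.8%, 91.3% and 90.6% with DM-aKG (-0.319 points). Without control replicate 1 its difference was 0.313. So the lower values of the 5-site cluster did not extend to the 24-site cluster.

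In Vdr a 4-site cluster at chr15:97863732-97863942, which also lies in Gm33690, had the smallest p of all receptor clusters. Its level was 87.8%, 89.3% and 82.5% in the controls and 97.0%, 95.0% and 100% with DM-aKG. All treated libraries lay above all controls, by 10.8 points on average (95% interval 5.21 to 16.5, limma adjusted p = 0.824). Only 3 of its 4 sites had a higher mean. The 15-site cluster at chr15:97876626-97876754 had 97.5%, 96.9% and 96.5% in the controls and 94.5%, 93.9% and 96.7% with DM-aKG, with overlapping groups (-1.91 points).

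Both clusters of Ppara had 7 sites. At chr15:85788511-85788614 the level was 92.6%, 90.3% and 87.9% in the controls and 95.0%, 96.6% and 96.7% with DM-aKG. All 7 sites had a higher mean with DM-aKG, but several of them are both strands of the same CpG. The groups did not overlap, with a difference of 5.86 points (95% interval 1.83 to 9.88, limma adjusted p = 0.824) and 7.02 without control replicate 1. At chr15:85745965-85746097, nearer the start, the level was 65.3%, 76.9% and 79.4% in the controls and 73.9%, 71.3% and 85.1% with DM-aKG. That difference, 2.90 points, was smaller than the SD of either group and was -1.38 without control replicate 1.

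Ppard had 18 clusters. The one with the smallest p, 5 sites at chr17:28299448-28299590, had 75.2%, 72.2% and 77.6% in the controls and 82.6%, 76.0% and 80.2% with DM-aKG, and the groups overlapped (4.60 points, limma adjusted p = 0.824). The largest, 29 sites at chr17:28297861-28298405, had 90.0%, 90.3% and 88.3% in the controls and 91.2%, 91.3% and 93.0% with DM-aKG. In that one the treated libraries lay above the controls, and the difference of 2.30 points had a 95% interval of -0.987 to 5.59. Differences over the 18 clusters ran from -8.75 to 4.60 points, 9 of them positive and 8 negative.

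Thra had 2 clusters. Its 13-site cluster at chr11:98756984-98757092 had 94.1%, 95.1% and 93.1% in the controls and 91.8%, 94.5% and 92.4% with DM-aKG (-1.21 points). Its 5-site cluster at chr11:98767344-98767391 had 92.2%, 90.0% and 98.6% and then 92.8%, 93.4% and 81.8% (-4.27 points), where DM-aKG replicate 3 alone lay below all controls. Without that library the difference was -0.500. The groups overlapped in both, and the single cluster of Nr1h3 holds the 7 sites already described.

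**Figure D4:**
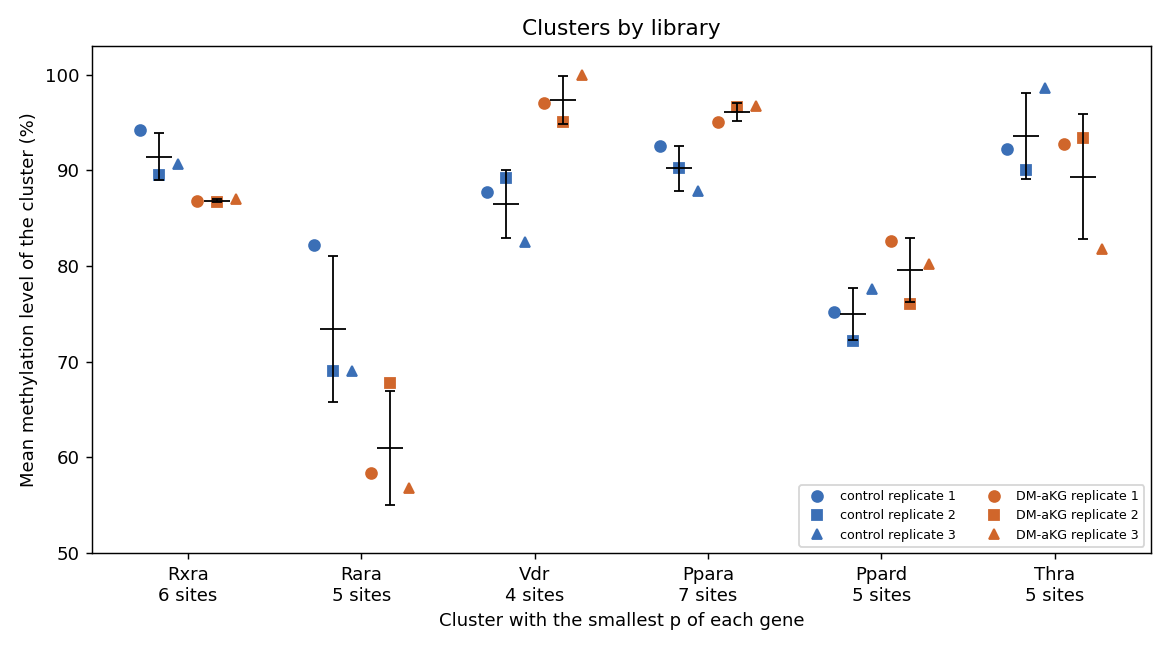
Mean level of methylation (%, vertical axis, which does not start at 0) per library of the cluster with the smallest p in 6 receptor genes (horizontal axis), where black bars mark group means with SDs (n = 3). The clusters of Rxra, Rara, Vdr and Ppara have groups that do not overlap, lower with DM-aKG in Rxra and Rara and higher in Vdr and Ppara, and none passed the adjusted threshold.

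At single sites, 13 of the 492 had all treated libraries above all controls (background 4.63%) and 19 below (2.5%), together 6.50% beside 7.13% of all 272327 complete sites. At an unadjusted limma p under 0.05 there were 24 (4.88%, background 5.44%), and after adjustment 0 (background 0%). The share of receptor sites without overlap and the share at an unadjusted limma p under 0.05 were thus near the background. The direction was not. Of the receptor sites without overlap 13 were higher and 19 lower, whereas over all complete sites 12622 were higher and 6795 lower. Of the 19 lower sites 7 lay in Nr5a2 and 5 in Ppard. Of the 7 in Nr5a2, 5 lay in the 32-site cluster, where control replicate 1 had the highest mean level.

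The sites with the largest difference among those whose groups do not overlap lie mostly in the clusters above. In Rara the first site of the 5-site cluster, chr11:98970603, stood at 92%, 73% and 70% in the controls and 43%, 56% and 48% with DM-aKG. Its difference was -29.3 points (95% interval -47.8 to -10.9, limma adjusted p = 0.784), and -22.5 without control replicate 1. In Nr5a2, chr1:136953002 had 95%, 53% and 72% in the controls and 42%, 45% and 51% with DM-aKG (-27.3 points, and -16.5 without control replicate 1). In Vdr, chr15:97863732 had 75%, 93% and 70% and then 100% in all 3 treated libraries (20.7 points). These 3 sites span nearly the whole measurable range, with a treated library close to the floor of 40% in Rara and Nr5a2 and all treated libraries at the ceiling in Vdr.

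In Ppard, chr17:28298371 had 73%, 67% and 75% in the controls and 78%, 100% and 100% with DM-aKG (21.0 points). In Ppara, chr15:85788613 had 87%, 77% and 77% and then 93%, 100% and 95% (15.7 points, and 19.0 without control replicate 1). In Rxra, chr2:27682154 had 100% in all 3 controls and 90%, 94% and 67% with DM-aKG (-16.3 points, -8.00 without DM-aKG replicate 3). The limma adjusted p of these 3 sites was 0.764 or more, and Nr1h3 and Thra had no site whose groups did not overlap.

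Presence of a value gave 2 further positions. At chr11:98927997, 197 bases inside the 5′ end of Rara, the controls stood at 50%, 47% and 50% and no DM-aKG library had a value. At chr15:85746183 in Ppara no control had a value and the DM-aKG libraries stood at 40%, 48% and 53%. Each pattern held at 1 of the 674 receptor positions (0.148%), against 0.459% of all positions for values in the 3 controls only and 0.314% for values in the 3 treated libraries only. Both lie near the lower limit of the table, where absence may mean a level under 40% or a position that was not called.

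None of the pathway and marker lists held a gene that passed limma with adjustment over all 9197 genes. Of 40 other nuclear receptor genes 22 were measured, 16 higher and 6 lower with DM-aKG, with a median difference of 0.904 points beside 0.733 over all genes. Those with the smallest p were Nr5a1, the steroidogenic relative of Nr5a2 (83.0% ± 2.10 in the controls and 87.0% ± 2.31 with DM-aKG, SD, n = 3), Rorb, an orphan receptor gene (83.5% ± 3.57 and 87.3% ± 0.754), and the remaining retinoid X receptor gene Rxrg (70.3% ± 4.70 and 75.8% ± 1.02). Of 19 coactivators and corepressors, the proteins through which receptors act on chromatin, 11 were measured, 5 higher and 6 lower (median -0.233 points, -0.356 to 0.188 with single libraries left out). They included the coactivator gene Ppargc1b (93.7% ± 0.503 and 92.5% ± 0.739), the corepressor gene Ncor1 (93.9% ± 1.61 and 95.6% ± 1.84) and the coactivator gene Ncoa1 (93.4% ± 1.33 and 94.9% ± 2.08).

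Of 25 genes of ligand supply and handling, 6 were measured, 5 higher and 1 lower (median 0.258 points). The vitamin D hydroxylase gene Cyp24a1 had 89.5% ± 0.946 (control) and 91.8% ± 0.992 (DM-aKG), the retinoic acid hydroxylase gene Cyp26a1 72.6% ± 6.00 and 77.4% ± 3.17, and the sterol hydroxylase gene Cyp27a1 82.7% ± 2.12 and 81.7% ± 0.771. Of 28 receptor target genes 10 were measured, 6 higher and 4 lower (median 0.470 points, -0.351 to 0.892 with single libraries left out). Cpt1a, the mitochondrial carnitine palmitoyltransferase and a PPAR target, had 92.7% ± 0.465 and 94.8% ± 1.10. The LXR targets Abcg1, a cholesterol transporter gene, and Mylip, which encodes a ubiquitin ligase for the LDL receptor, had 86.8% ± 0.910 and 89.6% ± 1.74, and 86.3% ± 2.26 and 83.8% ± 2.25. The smallest limma adjusted p in these lists was 0.764.

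The labelled tissue could not be checked by expression, since only DNA methylation was measured. Of 10 epithelial marker genes 5 were measured, 1 higher and 4 lower with DM-aKG (median -2.01 points, and -0.441 without control replicate 1), among them Epcam (90.1% ± 1.89 and 87.9% ± 0.967), Krt20 (95.1% ± 3.23 and 93.1% ± 1.03) and Lgr5 (95.1% ± 2.28 and 93.1% ± 2.29). Of 8 fibroblast markers 5 were measured, 4 higher and 1 lower (median 2.33 points), with Vim at 94.2% ± 0.165 and 96.5% ± 1.07, Dcn at 79.3% ± 5.07 and 85.8% ± 1.97 and Col6a2 at 88.6% ± 1.58 and 90.5% ± 2.28. Of 7 immune markers 3 were measured, 2 higher and 1 lower (median 1.69 points, and -0.0686 without control replicate 1): Ptprc (71.6% ± 5.51 and 76.6% ± 3.23), Csf1r (84.0% ± 3.04 and 85.7% ± 1.32) and Cd247 (85.0% ± 1.32 and 84.7% ± 1.75). Of 5 endothelial markers 2 were measured, Eng (86.7% ± 1.19 and 89.1% ± 0.275) and Pecam1 (90.0% ± 1.82 and 90.1% ± 0.285, which was 0.976 points lower with library means equalised). The part of cell mixture in the receptor values was not tested.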

How the data were processed

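DNA methylation of 3 control and 3 DM-aKG organoid cultures was measured by RRBS. Per the submitters' processing notes, CASAVA 1.8 and Novoalign 3.08.02 were used with build mm10, with no role stated for either. The sources used here name no methylation caller or coverage filter. The deposited values are whole percent methylation of each cytosine position in each library, as the authors rounded them, with no coverage, so depth is unknown and intervals cover replicate spread only. Of 813850 rows the first 390208 were used, because in the last 423642 the libraries are out of register. The start column counts from 1: 4222 of 4225 positions in RefSeq promoter windows (99.9%) fall on a C or G.

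Levels were averaged over complete sites per gene span plus 1000 bases each side, per cluster and per place (within 1000 bases of a gene end or further inside). Each kind of feature was fitted as a whole in limma 3.58.1 (R 4.3.3), DM-aKG against control, gene spans on log2 odds with an offset of 0.01 and clusters, sites and places on percent. P-values were adjusted by Benjamini-Hochberg with a threshold of 0.05, and differences and 95% intervals are in percentage points. For gene spans the p-values come from the fit on log2 odds and the intervals from a separate limma fit on percent. Fits were also run on simulated data with normal noise around the real means, which lack the rounding and the missing low values of the deposited levels. The outcome of those runs is not given here. For sites on log2 odds, an earlier run on simulated data called more unchanged than changed sites, so sites were fitted on percent. Alternatives covered scale, offset, flank, cluster gap and size, minimum sites, zeros, strand pairs, library scaling, replicate block, robust variance and single libraries left out; the mean without Nr5a2 was added after seeing the data.

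The members and lists were chosen with earlier results of these data known. Named were all 9 receptors; per receptor the cluster with the most sites and that with the smallest p, and the site with the largest difference among those without overlap; 3 genes with the smallest p per list; and per receptor the nearest other receptor over 6 libraries. A site, cluster or place past the threshold would also be named. The Nr5a2 cluster of 7 sites and the promoter and presence positions were singled out after their values were seen. Each p-value sets the group difference against the spread between 3 cultures a group, which limma moderates with that of all features of the kind. Sequences are from RefSeq (GRCm38.p6).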

Additional observations from a re-analysis of the deposited data

How the results depend on the processing

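No receptor gene, cluster or place passed the adjusted threshold under any alternative run, and 0 receptor sites did except 1 on log2 odds (the Nr5a2 site at -154) and 2 where zeros counted as levels (the presence positions of Rara and Ppara). Over all features, the number of gene spans past the threshold was 0 in the reported analysis, 1 on untransformed percent, 1 with an offset of 0.05, 1 with at least 1 site per gene and 7 with zeros counted. For clusters it was 1, and 0 with at least 5 sites, on log2 odds, with library means equalised, with the replicate block and without any single library (0 to 0); it was 107 with zeros counted. For sites it was 0, and 407 on log2 odds, 2379 with zeros counted and 0 to 9 without single libraries. For places it was 1, and 0 on log2 odds, 20 with zeros counted and 0 to 1 without single libraries. Receptor positions with values in at least 2 libraries of 1 group and none of the other numbered 34, beside 2 for all 3. Of the 34, 22 had control values only (3.26%, against 5.11% of all positions) and 12 had DM-aKG values only (1.78%, against 2.90%).

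Some differences changed sign. With library means equalised Rxra was at -0.280, Ppard at -0.983 and Pecam1 at -0.976 points. With positions 1 base apart averaged, Vdr was at 0.329, Ppard at -0.0177 and Pecam1 at -0.276. With a flank of 5000 bases Cyp27a1 was at 0.111. With zeros counted, Ppard was at -1.24, the 24-site Rara cluster at 0.293, Ncoa1 at -0.618, Cyp26a1 at -15.4, Cpt1a at -1.67, Mylip at 0.928, Krt20 at 0.571, Vim at -4.21, Csf1r at -13.6, Cd247 at 2.91 and Pecam1 at -3.78. The cause was not tested.

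Leaving out single libraries gave ranges through 0 for Rara (-1.47 to 0.0341, span and inner sites), Vdr (-0.888 to 0.628, span and inner sites), Ppard (-0.298 to 0.745, inner sites -0.544 to 0.833, end -0.0952 to 2.62) and Nr1h3 (-0.190 to 3.88, span, inner sites and cluster). The same held for the 24-site Rara cluster (-0.875 to 0.313), the first Ppara cluster (-1.38 to 5.69) and the end of Nr5a2 (-0.222 to 2.44). It held for Cyp27a1 (-2.09 to 0.0256), Csf1r (-0.0686 to 2.64), Cd247 (-1.26 to 0.490) and Pecam1 (-0.905 to 0.888). The 8-gene mean also passed through 0 (-0.579 to 0.158). So did the medians of the receptor genes (-0.593 to 0.331), coactivators and corepressors (-0.356 to 0.188), receptor targets (-0.351 to 0.892) and immune markers (-0.0686 to 2.64). The epithelial median ran from -2.47 to -0.441. The spans of Rxra (0.214 to 1.76), Ppara (1.45 to 4.89), Nr5a2 (-9.29 to -1.07) and Thra (-2.92 to -0.842) kept their sign.

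Replicate numbers are shared by the groups in the labels. Deviations of same-numbered libraries correlated at 0.0652, -0.0276 and 0.0306, and those of differently numbered libraries at -0.0871 to 0.0903. Values this close to each other cannot decide whether same-numbered cultures were paired. With the replicate block 0 receptor genes passed, as without it, the number of clusters past the threshold went from 1 to 0, and no other count changed. Control replicates 1 and 3 correlated best with the treated library of their own number, and control replicate 2 with DM-aKG replicate 3. DM-aKG replicate 1 correlated best with its own number, and DM-aKG replicates 2 and 3 with control replicates 1 and 2. Limits remain: depth is unknown, levels under 40% are absent, and 3 libraries a group leave intervals of several points.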
